A study of Mus musculus with 2 samples.

Results

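The 9 long noncoding RNA (lncRNA) genes described here were taken from the 17774 genes counted in single cones of *Pde6c*.GFP mice. They are *Gad1os*, *Gm5103*, *4632411P08Rik*, *Gm31557*, *Gm47152*, *4930528D03Rik*, *Gm29152*, *Gm15417* and *Airn*. They were chosen by their measured counts in cells of these same libraries, as marker genes of cell clusters. The first 6 mark a cluster mostly of GSK-J4-treated cones, *Gm29152* and *Gm15417* mark a cluster of uninjected cones, and *Airn* marks another such cluster. The direction of each difference between the libraries was therefore fixed by the choice, and is given as a description with no test.

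The cones carried the Pde6ccpfl1 mutation, which disables the cone phosphodiesterase and leads to cone death, on a C57BL/6 background, and eGFP driven by the *Chrnb4* promoter. GSK-J4, an inhibitor of the Jumonji enzymes that take methyl groups off H3K27, was injected once into the vitreous at P14 at 10 µM, and retinae were taken 10 days later, at P24. The control cones came from uninjected mice with the same mutation and the same GFP, also labelled P24, so that the injection and the compound cannot be told apart. GFP-positive cells were sorted 1 to a well, onto 1 plate for each condition, and each condition was 1 library. Plate and treatment cannot be told apart, no difference has a replicate check, and the number of mice behind each plate was not given in the sources used here. The word adult stands in the names of the GSK-J4-treated cells, whereas both libraries are labelled P24.

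The deposited table held 85 uninjected and 66 GSK-J4-treated cells, the latter fewer than the study analysed. After the filter of the methods, 1113424 counts remained in 82 uninjected cells and 208578 in 64 GSK-J4-treated cells. This set of cells thus differs from the set in which the marker genes were chosen. The median uninjected cell held 8118 (860 to 98250) and the median GSK-J4-treated cell 2335.5 (420 to 15371). The median cell had 1793 genes and a mitochondrial share of 0.952% on the uninjected plate, and 948.5 genes and 0.0146% on the GSK-J4-treated plate. On the left side of the plate (columns 1 to 6) lay 39 uninjected and 33 GSK-J4-treated cells, and on the right side (columns 7 to 12) 43 and 31. The 2 libraries shared no cell name. The listed markers of cones took 2.59% of uninjected counts, with a count in 82 of 82 cells, and 0.213% of GSK-J4-treated counts, with a count in 14 of 64 cells, where 5 of the 11 markers were at 0. The label of cone photoreceptor was therefore borne out by its markers in the uninjected library, and in only a minority of the GSK-J4-treated cells. Markers of rods took 0.255% and 0.0201% of counts, and those of Müller glia 0.108% and 0.0278%. Those of bipolar, amacrine and ganglion cells, microglia, retinal pigment epithelium and erythrocytes each took at most 0.0129% in either library. The part of cell makeup in the values of the lncRNAs was not tested.

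LncRNAs are transcripts without a long open reading frame. Some act on the chromosome from which they are made, where they recruit or displace chromatin enzymes, and others act elsewhere in the nucleus or the cytoplasm, but for most no role is known. *Airn* is among the best studied. It is made from the paternal chromosome only, runs against the gene of the receptor *Igf2r*, and silences that gene and its neighbours in cis. *Gad1os* is named for its place opposite *Gad1*, the enzyme that makes the transmitter GABA. For the other 7 genes no role is stated here.

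In GENCODE vM21 (GRCm38) *Gad1os*, *Gm15417* and *Airn* were annotated as antisense genes and the other 6 as intergenic lncRNAs. *Gad1os* spans chr2:70489940-70563357 on the minus strand, and the other 8 lie on the plus strand. *Gm5103* lies at chr3:51378024-51386324, *4632411P08Rik* at chr5:29378699-29390488 and *Gm31557* at chr9:46666273-46674844. *Gm47152* (chr13:34720682-34728661) and *4930528D03Rik* (chr13:59733630-59739185) are on the same chromosome but far apart. *Gm29152* lies at chr1:64649935-64652756, *Gm15417* at chr3:89391850-89398779 and *Airn* at chr17:12741311-12860136.

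The assay counted molecules by their 3′ and 5′ ends, so the last 60 bases of the longest annotated transcript of each gene are shown, all within its last exon. They are from GENCODE vM21, written 5′ to 3′ on the transcribed strand, with capitals for AATAAA, the common polyadenylation signal.
Gad1os (chr2:70489940-70489999, minus strand): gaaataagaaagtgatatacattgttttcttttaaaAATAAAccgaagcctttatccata
Gm5103 (chr3:51386265-51386324, plus strand): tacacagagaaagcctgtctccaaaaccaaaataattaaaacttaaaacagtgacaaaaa
4632411P08Rik (chr5:29390429-29390488, plus strand): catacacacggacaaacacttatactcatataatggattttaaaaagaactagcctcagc
Gm31557 (chr9:46674785-46674844, plus strand): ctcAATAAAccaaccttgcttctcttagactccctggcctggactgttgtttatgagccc
Gm47152 (chr13:34728602-34728661, plus strand): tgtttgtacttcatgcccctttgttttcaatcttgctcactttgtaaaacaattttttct
4930528D03Rik (chr13:59739126-59739185, plus strand): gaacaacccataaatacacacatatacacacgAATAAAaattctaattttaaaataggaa
Gm29152 (chr1:64652697-64652756, plus strand): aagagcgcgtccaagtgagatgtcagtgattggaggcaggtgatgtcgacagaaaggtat
Gm15417 (chr3:89398720-89398779, plus strand): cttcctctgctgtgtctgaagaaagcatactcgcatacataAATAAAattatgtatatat
Airn (chr17:12830276-12830335, plus strand): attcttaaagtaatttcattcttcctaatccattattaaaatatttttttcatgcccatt
The signal was found in the last 60 bases of 4 of the 9, searched on the transcribed strand only, against 58.5% of 7605 genes tested and 40% of the 420 lncRNA genes among them. It was found in 3 of the 6 lncRNAs listed for the GSK-J4-treated cluster and in 1 of the 3 listed for uninjected clusters. The longest run of A in these transcripts was 3 to 6 bases, where the median of all genes tested was 6. The longest annotated transcripts were short, from 325 bases in *Gm29152* to 3237 in *4632411P08Rik*, against a median of 3698. For *Airn* this was a model of 1375 bases in 2 exons. It ends at chr17:12830335, before the annotated end of the gene at 12860136. The end shown for *Airn*, its length and its lack of AATAAA hold for that model only. *Gad1os* and *Airn* have long spans with few exon bases, 73418 bases with 938 in exons and 118826 with 3597. In length, exon number, GC content and run of A the ranges of the 6 and of the 3 overlapped.

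The promoter windows of *Gad1os* and *Airn*, 250 bases before to 50 after the RefSeq start (GRCm38.p6), are shown because each lies inside the gene that its transcript runs against, *Gad1* and *Igf2r*. Capitals mark CG.
Gad1os promoter (chr2:70563308-70563607, minus strand): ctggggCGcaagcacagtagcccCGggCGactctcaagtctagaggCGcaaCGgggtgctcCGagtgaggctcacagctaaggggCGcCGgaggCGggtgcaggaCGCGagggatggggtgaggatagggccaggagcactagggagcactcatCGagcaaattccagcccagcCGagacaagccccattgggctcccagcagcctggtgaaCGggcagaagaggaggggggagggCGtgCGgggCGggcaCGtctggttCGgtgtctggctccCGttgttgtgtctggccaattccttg
Airn promoter (chr17:12741061-12741360, plus strand): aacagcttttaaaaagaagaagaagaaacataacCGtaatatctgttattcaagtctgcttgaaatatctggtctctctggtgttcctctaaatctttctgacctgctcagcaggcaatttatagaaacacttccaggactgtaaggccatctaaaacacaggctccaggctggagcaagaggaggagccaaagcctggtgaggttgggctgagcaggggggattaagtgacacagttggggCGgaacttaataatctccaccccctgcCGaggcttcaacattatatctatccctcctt
The *Gad1os* window held 20 CG and the *Airn* window 3, where the median of 32851 windows was 7 and 94.6% held at least 1. The windows of other members held 1 CG in *4930528D03Rik*, 4 in *Gm31557*, 9 in *Gm5103*, and 12 and 16 at the starts of *Gm15417*. The RefSeq start of *Gm31557* lies 58676 bases before its GENCODE start.

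The 6 lncRNAs of the GSK-J4-treated cluster were in most treated cells or a large minority of them, and in few or no uninjected cells. *Gm31557* was found in 56 of 64 GSK-J4-treated cells (87.5%, 95% interval 76.8 to 94.4), *Gad1os* in 50 (78.1%, 66.0 to 87.5) and *Gm47152* in 45 (70.3%, 57.6 to 81.1). *4930528D03Rik* was in 35 (54.7%, 41.7 to 67.2), *4632411P08Rik* in 31 (48.4%, 35.8 to 61.3) and *Gm5103* in 24 (37.5%, 25.7 to 50.5). In this order of shares, the intervals of neighbours overlapped throughout. The shares come from the same 64 cells, so overlap of separate intervals does not show that neighbours were equal. In the 82 uninjected cells *Gm31557* had no count, which allows a share of cells with a count of up to 3.66% by a floor of 3 counts, and up to 4.40% by the 95% interval. *Gm5103* and *4632411P08Rik* were each in 1 cell, *Gad1os* and *4930528D03Rik* in 3 and *Gm47152* in 8 (9.76%, 4.31 to 18.3). Of all 7682 genes tested 104 had no count in uninjected cells.

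The share of cells was higher in the GSK-J4-treated library for 6 of 6, with intervals apart, where 5.02% of 7682 genes tested were higher in this way. All 6 also had a log-fold over 0.3, as did 20.4% of genes tested. The rule of choice used this contrast, so nothing is read from these counts. The log-fold sets the mean count per 10000 plus 1 of GSK-J4-treated cells against that of uninjected cells, as the difference of natural logs. It was 2.79 for *Gm31557*, 2.36 for *4930528D03Rik*, 2.06 for *Gm5103*, 1.98 for *Gad1os*, 1.88 for *Gm47152* and 1.85 for *4632411P08Rik*. Among 421 lncRNA genes tested these were the 6 highest log-folds.

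**Figure D1:**
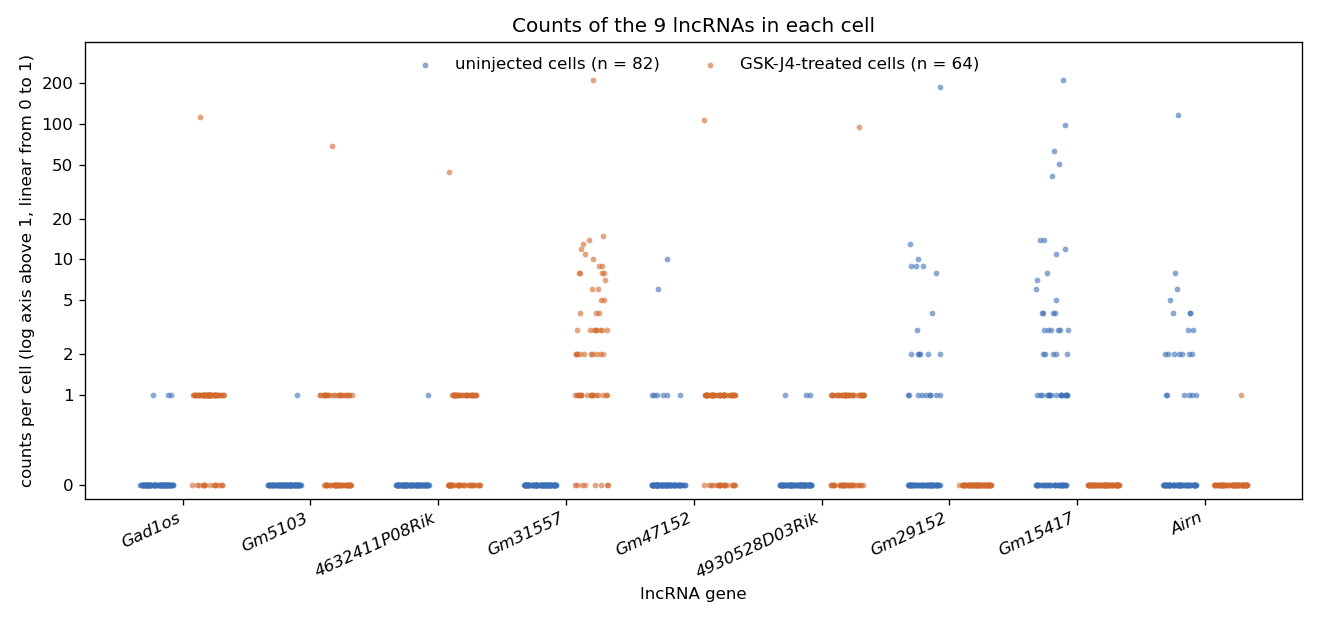
Counts of each of the 9 lncRNAs (x axis) in each cell (y axis, log above 1), with 82 uninjected cells in blue and 64 GSK-J4-treated cells in orange, spread sideways to show overlap. In 5 of the 6 lncRNAs on the left the GSK-J4-treated cells sit at 0 or 1 apart from 1 cell at 44 to 113. In *Gm31557*, *Gm29152*, *Airn* and *Gm15417* the counts are graded up to 15, 13, 8 and 99 below the highest cell.

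Behind these shares the counts of 5 of the 6 had the same uneven form. *Gad1os* had 162 counts in GSK-J4-treated cells (138 to 189, exact Poisson), of which 113 were in well H11 and 1 in each of the 49 other cells where it was found. In uninjected cells it had 3 counts, 1 in each of 3 cells. The plate thus held 1 cell with very many counts and 49 cells with a single count. Whether each single count, and so each share of cells, stands for a molecule of that cell was not tested.

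*Gm47152* had 151 counts (128 to 177), 107 of them in well E02 and 1 in each of 44 other cells. It was the only 1 of the 6 with more than 1 count in an uninjected cell, with 22 counts in 8 cells and up to 10 in a cell. *4930528D03Rik* had 129 counts (108 to 153), 95 in well H08 and 1 in each of 34 other cells, against 3 counts in uninjected cells. *Gm5103* had 92 counts (74.2 to 113), of which the same well H08 held 69 and 23 other cells held 1 each, against 1 count in uninjected cells. *4632411P08Rik* had 74 counts (58.1 to 92.9), 44 in well G04 and 1 in each of 30 other cells, against 1 in uninjected cells. For these 5 lncRNAs no GSK-J4-treated cell held more than 1 count apart from the highest cell.

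The cells with many counts were not the deepest of the plate. Well H08 held 1984 counts in all and well G04 1846, both below the median cell of this library, while E02 held 5180 and H11 8090. *4930528D03Rik* and *Gm5103* therefore made up 479 and 348 of each 10000 counts in well H08. *4632411P08Rik* made up 238 per 10000 in G04, *Gm47152* 207 in E02 and *Gad1os* 140 in H11. Without the cell that held most of it, the log-fold fell to 1.63 for *Gad1os*, 1.36 for *Gm47152*, 1.16 for *4930528D03Rik*, 0.99 for *4632411P08Rik* and 0.90 for *Gm5103*. With a count of at least 2 asked for, each of these 5 was in 1 of 64 GSK-J4-treated cells.

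*Gm31557* differed from the other 5. It had 439 counts (399 to 482) in GSK-J4-treated cells, and 0 in uninjected cells, which is at least 781-fold higher per count sequenced against a floor of 3 counts over the uninjected library. Well H11 held 212 of them, and the next cells held 15, 14, 13 and 12. Of the 56 cells with the transcript, 17 had 1 count, 23 had 2 to 5 and 16 had more than 5, with a median of 3. Its counts were thus graded from cell to cell, and its log-fold without well H11 was 2.51. Well H11 was the highest cell for *Gm31557* and for *Gad1os* alike.

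The form of 1 count in each cell but 1 was then looked for in all genes, by a rule set after these values had been seen. Among the 545 genes found in 20 or more GSK-J4-treated cells, 99 (18.2%) had exactly 1 count in every cell where they were found except 1 cell with 20 or more. These 99 included the 5 lncRNAs, and 12 of the 48 lncRNA genes common enough to be counted. Among 2809 genes found in 20 or more uninjected cells, 0 did (0 of 119 lncRNA genes), and with genes in 10 or more cells the numbers were 115 of 1823 and 9 of 6186. The 99 genes were in a median of 30 GSK-J4-treated and 4 uninjected cells, a contrast that the choice of genes common in GSK-J4-treated cells favours. The highest cell held a median of 58 counts (21 to 2143). Single counts were also more usual in the GSK-J4-treated library as a whole, where 76.7% of all values above 0 were 1, against 57.6% in the uninjected library. Wells without a cell were not analysed here, and what sets the form apart by plate was not tested.

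**Figure D2:**
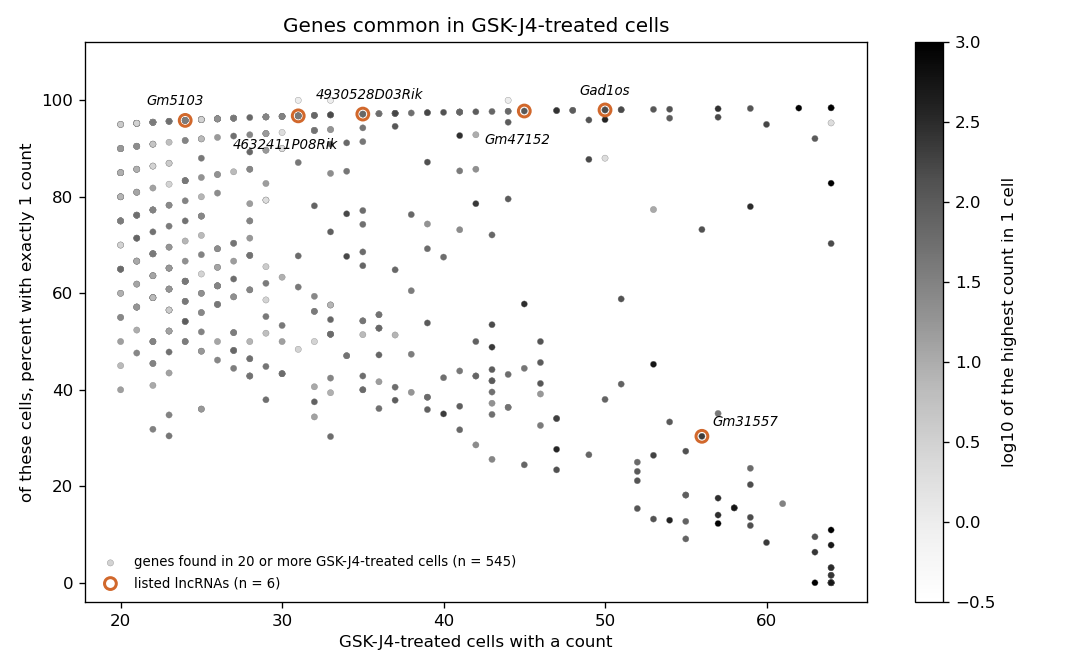
Each point is 1 of 545 genes found in 20 or more GSK-J4-treated cells, by the number of cells with a count (x axis) and the percent of these cells with exactly 1 count (y axis), shaded by the log10 of the highest count in a cell. The ringed lncRNAs *Gm5103*, *4632411P08Rik*, *4930528D03Rik*, *Gm47152* and *Gad1os* lie on the upper edge, where all cells but 1 had 1 count, and *Gm31557* lies far below it.

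Within the GSK-J4-treated library, each of the 6 was found more often in deeper cells. GSK-J4-treated cells with *Gad1os* had a median of 2947.5 counts, and those without it 844.5. In the deeper 32 GSK-J4-treated cells (2476 counts or more) *Gm31557* was found in 32 and in the shallower 32 in 24. For *4632411P08Rik* the numbers were 24 and 7, for *4930528D03Rik* 26 and 9, for *Gm47152* 30 and 15, for *Gad1os* 30 and 20, and for *Gm5103* 16 and 8.

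The uninjected cells were the deeper of the libraries, and the 6 were compared again at matched depth. Among cells of 1000 to 5000 counts, *Gm31557* was in 34 of 36 GSK-J4-treated and 0 of 25 uninjected cells, and *Gad1os* in 30 and 0. *Gm47152* was in 27 and 1, *4930528D03Rik* in 20 and 0, *4632411P08Rik* in 19 and 0, and *Gm5103* in 13 and 0. After each cell was thinned to 867 counts, which left 50 GSK-J4-treated and 81 uninjected cells, the expected shares of GSK-J4-treated cells were 63.9% for *Gm31557* and 13.2% to 29.1% for the other 5. Those of uninjected cells were at most 1.59%. The intervals of the libraries stood apart for 6 of 6 among cells of 1000 to 5000 counts and for 5 of 6 in 1 random draw of 867 counts from each cell. The exception was *Gm47152*, in 10 of 50 GSK-J4-treated cells (10.0% to 33.7%) and 3 of 81 uninjected cells (0.770% to 10.4%). Over all cells 5.02% of genes tested were higher in this way, and at matched depth that share was not counted. The choice of genes used this contrast, so nothing is read from the numbers at matched depth.

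**Figure D3:**
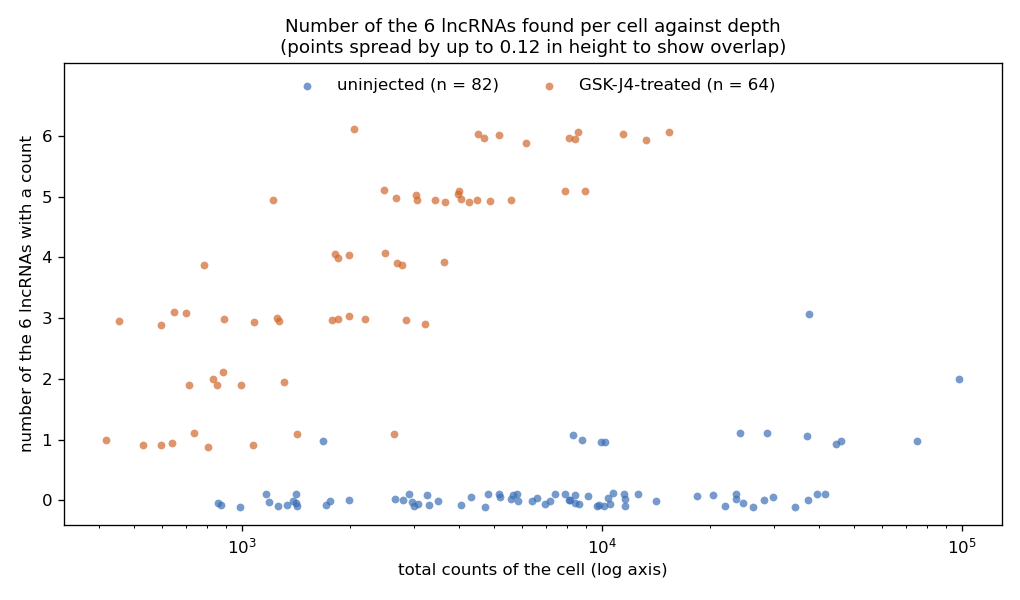
Number of the 6 lncRNAs of the GSK-J4-treated cluster found in each cell (y axis, points spread by up to 0.12) against the total counts of the cell (x axis, log scale), for 82 uninjected cells in blue and 64 GSK-J4-treated cells in orange. GSK-J4-treated cells held 1 to 6 and rose with depth, while 69 of 82 uninjected cells held 0, with a median of 6613 counts, and the 11 that held 1 had a median of 24214.

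Pairs of the 6 were found together in slightly more cells than the product of their shares gives. Every GSK-J4-treated cell held at least 1 of them. The numbers of cells with 1, 2, 3, 4, 5 and 6 of them were 9, 6, 14, 8, 16 and 11, and the median total count of these cells went from 734 with 1 to 8090 with 6. Of the 82 uninjected cells 69 held none, 11 held 1, 1 held 2 and 1 held 3. In GSK-J4-treated cells 15 of 15 pairs were above that product, by a ratio of 1.03 to 1.37 (median 1.14). The pair with the largest ratio was *Gm5103* and *4930528D03Rik*, with 18 cells against 13.1, both highest in well H08. The pair with the smallest was *Gad1os* and *Gm31557*, with 45 against 43.8. Cells of 1 plate differ in depth, and each of the 6 was found more often in deeper cells, so the excess is a description only. Pairs of other genes were not counted, so whether the excess is particular to the 6 was not tested. Within the left and the right side 14 of 15 pairs were above the product, and with at least 2 counts of both 6 of 15 pairs were, each through 1 cell.

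On the GSK-J4-treated plate the 6 were spread over both sides. *Gm31557* was in 28 of 33 cells on the left and 28 of 31 on the right, and *Gad1os* in 25 and 25. *Gm47152* was in 24 and 21, *4930528D03Rik* in 17 and 18, *4632411P08Rik* in 16 and 15, and *Gm5103* in 12 and 12. The intervals of the sides overlapped for 6 of 6. Over 3137 genes tested in this library, 0% were higher on the left with intervals apart and 0.351% on the right. The median GSK-J4-treated cell had 1843 counts on the left and 2692 on the right.

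GSK-J4-treated cells with counts of cone markers were deeper and held the 6 more often. The 14 GSK-J4-treated cells with a count of a cone marker had a median of 3839.5 counts, and the other 50 had 1826.5. *Gm31557* was in 14 of the 14 and 42 of the 50, *Gad1os* in 13 and 37, and *Gm47152* in 13 and 32. *4930528D03Rik* was in 12 and 23, *4632411P08Rik* in 9 and 22, and *Gm5103* in 8 and 16. Each of the 6 was thus found both in cells with and in cells without counts of cone markers. The 4 wells that held most of them had 0 or 1 such count.

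The 3 lncRNAs of the uninjected clusters were at or near 0 in GSK-J4-treated cells. *Gm15417* was found in 45 of 82 uninjected cells (54.9%, 43.5 to 65.9), *Gm29152* in 24 (29.3%, 19.7 to 40.4) and *Airn* in 22 (26.8%, 17.6 to 37.8). In order of shares *Gm15417* stood apart from *Gm29152* by its interval, and the intervals of *Gm29152* and *Airn* overlapped. *Gm15417* and *Gm29152* had no count in 64 GSK-J4-treated cells, which allows a share of cells with a count of up to 4.69% by that floor and 5.6% by the interval, and *Airn* had 1 count in 1 cell. Of all 7682 genes tested 945 had no count in these cells, as did 55 of the 421 lncRNA genes. The share was lower in the GSK-J4-treated library for 3 of 3 with intervals apart, where 34.2% of genes tested were, and 24% of genes tested had a log-fold under -0.3. This contrast too was used by the choice, so nothing is read from it.

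Summed over uninjected cells *Gm15417* had 604 counts (557 to 654), *Gm29152* 275 (243 to 309) and *Airn* 174 (149 to 202). Against a floor of 3 counts over the GSK-J4-treated library, *Gm15417* was at least 37.7-fold lower there per count sequenced and *Gm29152* at least 17.2-fold lower. The log-folds were -1.53 for *Gm15417*, -1.08 for *Airn* and -0.80 for *Gm29152*. Their counts were graded from cell to cell, but each also had 1 cell far above the rest. Well D06 held 212 counts of *Gm15417*, followed by cells with 99, 63, 51 and 41. Well G02 held 189 of *Gm29152*, followed by 13, 10, 9 and 9. Well A09 held 117 of *Airn*, followed by 8, 6, 5 and 4. D06 and G02 were deep cells, with 39454 and 37670 counts, while A09 held 7874. Without these cells the log-folds were -1.39, -0.48 and -0.39 for *Gm15417*, *Gm29152* and *Airn*.

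At matched depth the intervals of the libraries overlapped for *Gm29152* and *Airn*. Among cells of 1000 to 5000 counts, *Gm15417* was in 9 of 25 uninjected cells and *Gm29152* and *Airn* in 4 each, against 0 of 36 GSK-J4-treated cells. Thinned to 867 counts, the expected shares of uninjected cells were 15.8% for *Gm15417*, 7.01% for *Airn* and 6.26% for *Gm29152*, against 0 in GSK-J4-treated cells. Intervals stood apart for *Gm15417* alone, both among cells of 1000 to 5000 counts and in the random draw. In the draw *Gm15417* was in 14 of 81 uninjected cells (9.78% to 27.3%). Over all cells 34.2% of genes tested were lower in this way, and at matched depth that share was not counted. The choice of genes used this contrast too. The log-folds of *Airn* and *Gm29152* were -1.05 and -0.69 in that draw, and -0.95 and -0.44 among cells of 1000 to 5000 counts.

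The side of the plate parted *Gm29152* and *Airn* in opposite ways. *Gm29152* was in 23 of 39 uninjected cells on the left (59.0%, 42.1 to 74.4) and in 1 of 43 on the right (2.33%, 0.0589 to 12.3). *Airn* was in 2 of 39 on the left (5.13%, 0.627 to 17.3) and in 20 of 43 on the right (46.5%, 31.2 to 62.3). *Gm15417* was in 27 on the left (69.2%, 52.4 to 83.0) and 18 on the right (41.9%, 27.0 to 57.9), with intervals that overlapped. Of the counts of *Gm29152* 274 of 275 were on the left, and of those of *Airn* 171 of 174 were on the right. Over 6783 genes tested in this library 6.47% were higher on the left with intervals apart and 5.81% on the right. *Gm29152* and *Airn* mark different clusters of these cells and were chosen with the sides in view, so the split is a description. The median cell held 8819 counts on the left and 7163 on the right. After thinning, *Gm29152* had expected shares of 13% and 0.0210%, *Airn* of 2.38% and 11.3%, and in the random draw the intervals of the sides no longer stood apart.

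**Figure D4:**
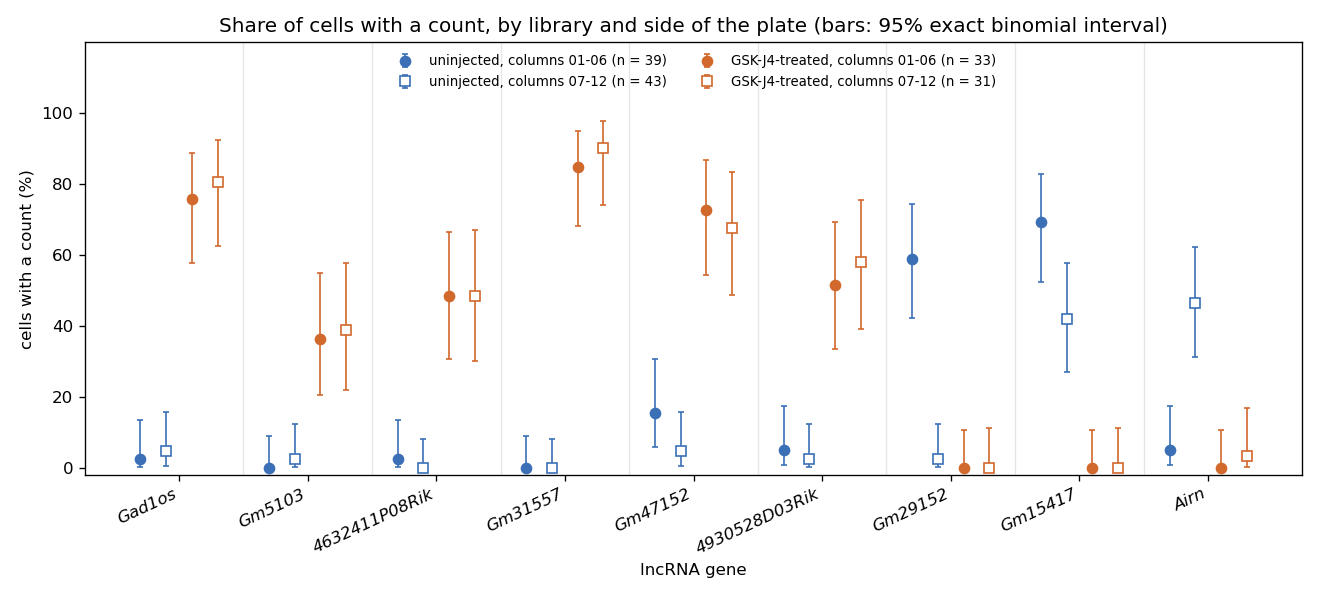
Share of cells with a count (y axis, percent) of each of the 9 lncRNAs (x axis) on each side of each plate, with bars for the 95% exact binomial interval, for 39 and 43 uninjected and 33 and 31 GSK-J4-treated cells. The intervals of the sides overlap for the 6 lncRNAs of the GSK-J4-treated cells. They stand apart in uninjected cells for *Gm29152* (59.0% and 2.33%) and *Airn* (5.13% and 46.5%).

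**Figure D5:**
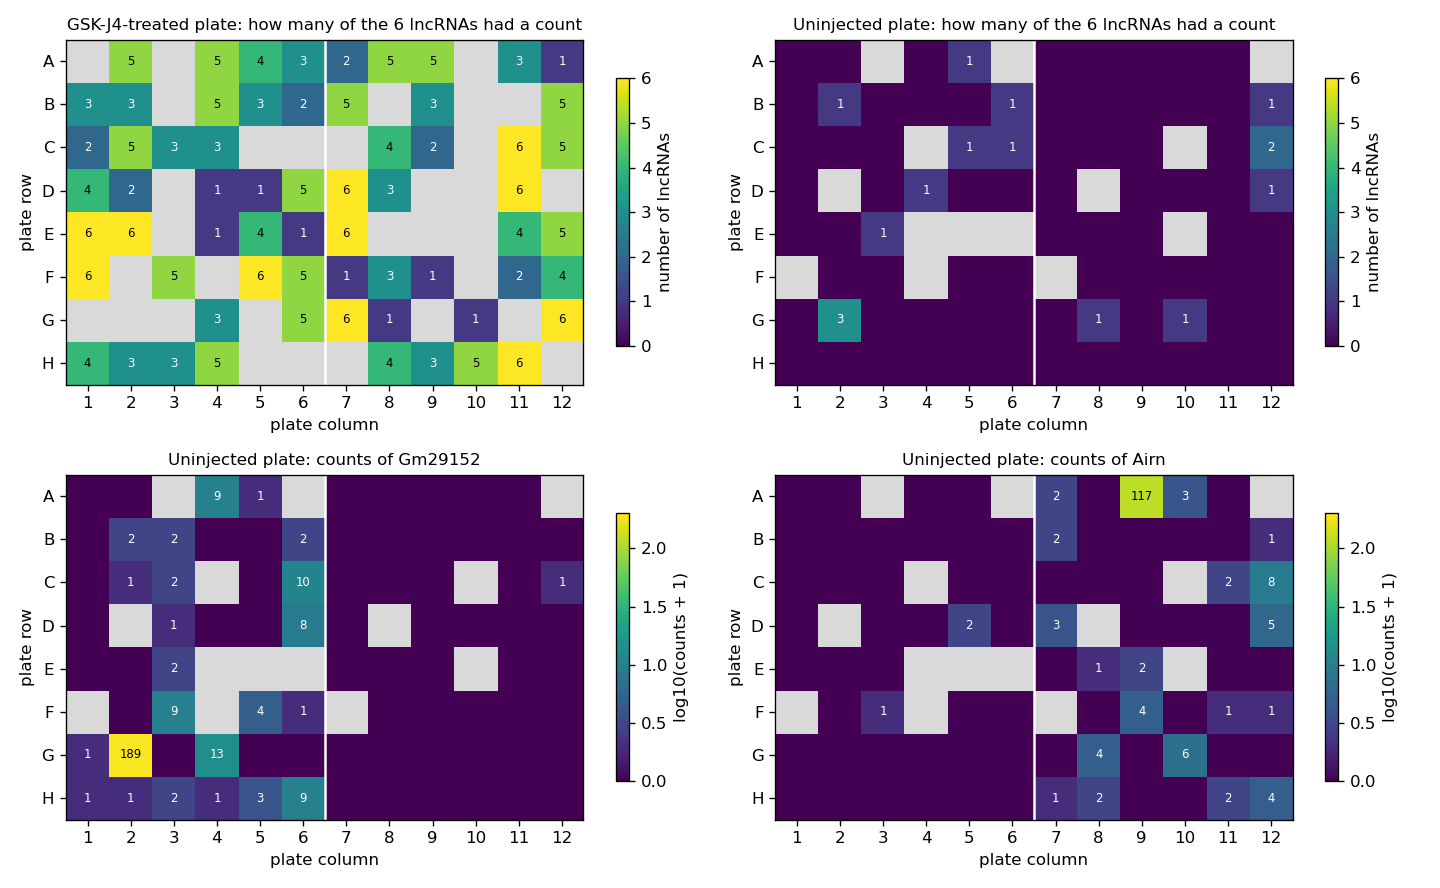
Maps of the wells of each plate (rows A to H, columns 1 to 12, grey for wells without a kept cell, white line between the sides). The upper maps give how many of the 6 lncRNAs were found, 1 to 6 over the whole GSK-J4-treated plate and mostly 0 on the uninjected plate, and the lower maps give the counts of *Gm29152*, 23 of 24 cells left of the line, and *Airn*, 20 of 22 cells right of it.

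Over the whole uninjected plate *Gm29152* and *Airn* were found together less often than the product of their shares gives. The other pairs of the 3 were above it, also within the side named. *Gm29152* and *Gm15417* were both in 20 uninjected cells, against 13.2 from the product of their shares, and on the left alone in 19 against 15.9. *Gm15417* and *Airn* were both in 14 against 12.1, and on the right alone in 13 against 8.37. *Gm29152* and *Airn* were both in 2 cells against 6.44, and on the left alone in 1 against 1.18. On the right alone *Gm29152* and *Airn* were both in 1 cell against 0.465, and products this small could not show a shortage within a side. Of the 82 cells 25 held none of the 3, 25 held 1, 30 held 2 and 2 held 3. Across the sets, 6 of the 8 uninjected cells with *Gm47152* also held *Gm29152*, against 2.34 from the product, and on the left 5 against 3.54. *Gm47152* and *Gm15417* were both in 6 against 4.39, on the left in 4 against 4.15 and on the right in 2 against 0.837. Cells with *Gm29152* were deeper, with a median of 17294.5 counts against 6127 in the cells without it. Those with *Gm15417* (10511 against 4814) and *Airn* (11057 against 6783.5) were deeper too, so the excesses are a description only.

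Of the genes that overlap the lncRNAs, 3 had a row after the filter. *Gad1*, opposite *Gad1os*, had 12 counts in 5 uninjected cells and 1 count in 1 GSK-J4-treated cell, a cell that also held *Gad1os*. *Gad1* was thus near 0 in both libraries. The other 2 genes of GABA handling, *Gad2* and the vesicle transporter *Slc32a1*, were near 0 too, with 0 and 6 counts on the uninjected plate and 3 and 1 on the other. *Igf2r*, the receptor gene opposite *Airn*, had 12 counts in 12 uninjected cells and 17 counts in 13 GSK-J4-treated cells, a log-fold of 0.37. In uninjected cells *Airn* and *Igf2r* were found together in 3, against 3.22 from the product of shares. *Zbtb7b*, a transcription factor gene opposite *Gm15417* with 116 exon bases in common, had 21 counts in 8 uninjected cells and 4 in 4 GSK-J4-treated cells. *Gm15417* was in 7 of those 8 uninjected cells, against 4.39 from the product of shares. Uninjected cells with *Gm15417* were deeper (median 10511 counts, against 4814 without it), so this excess is a description only. The counting is not stated to have used strand, so reads of *Gm15417* and *Zbtb7b* over these bases cannot be told apart. *Gm47152* shares 40 exon bases with *Gm47151*, which had no row after the filter.

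The nearest protein-coding genes were counted in the same cells, and their summed counts are given as uninjected and GSK-J4-treated in turn. *Nom1*, 44176 bases after *4632411P08Rik*, had 4 uninjected and 15 GSK-J4-treated counts, the latter in 15 cells. It was in 11 of these 15 with the lncRNA, against 7.27 from the product of shares. The lncRNA was found more often in deeper cells, so this excess is a description only. *Lmbr1*, which ends 309 bases before that lncRNA on the other strand, had 0 and 6 counts. *Mgarp*, 2088 bases after *Gm5103*, had 94 and 2 counts, and *Elf2*, 37361 bases before *Gm5103*, had 48 and 15. *4931429L15Rik*, 346287 bases before *Gm31557*, had 38 and 10 counts, and *1700014D04Rik*, 1657 bases after *4930528D03Rik*, had 5 and 3. On the sides of *Gad1os*, *Sp5* (12211 bases away) had 3 and 2 counts and *Gm26558* (97891 bases away) had 16 and 0. *Mettl21a*, 32693 bases before *Gm29152*, had 12 and 1. *Mrgprh*, 15898 bases after *Airn*, had 2 and 1. The other nearest genes had no row after the filter or are not analysed here.

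The genes most like each lncRNA over cells were mostly those with the same highest well. Likeness was Pearson's r of the log of 1 plus the count per 10000, over 64 GSK-J4-treated cells and 3137 genes or 82 uninjected cells and 6783 genes. The cells share a plate and differ in depth, so r is a description. The top gene was *Brdt* for *Gad1os* (r = 0.49, and 0.34 without the highest cell), *Rap1gap2* for *Gm5103* (0.60 and 0.31), *Pde1c* for *4632411P08Rik* (0.58 and 0.38) and *Ercc4* for *Gm47152* (0.55 and 0.37). *Tnfaip8* was the top gene for *4930528D03Rik* (0.59 and 0.32) and the second for *Gm5103* (0.55 and 0.23), both with their most counts in well H08. *Gm31557* had *Rsf1* (0.40 and 0.26), *Rora* (0.40 and 0.38) and *Dchs1* (0.40 and 0.43). Neither *Rora* nor *Dchs1* shared the highest well of *Gm31557*, and *Rsf1* did. In uninjected cells the top gene was *Fam160b1* for *Gm29152* (0.71 and 0.50), *Stn1* for *Gm15417* (0.51 and 0.40) and *Crebzf* for *Airn* (0.73 and 0.46). *Gm15234* was also among the 3 most like *Gm5103* (0.54, and -0.01 without the highest cell) and *4930528D03Rik* (0.56 and 0.09), and *Tmem115* among those of *4632411P08Rik* (0.55 and 0.04), so these likenesses rested on 1 cell. The others were *Gm47957* and *Sipa1* for *Gad1os*, *Il12b* for *4930528D03Rik*, *Stambpl1* for *4632411P08Rik*, and *Twsg1* and *Ank2* for *Gm47152*. *Ipmk* and *Aak1* were among them for *Gm29152*, *Sugp1* and *Bud31* for *Gm15417*, and *Mrpl9* and *Zscan2* for *Airn*.

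The lncRNAs as a class lay on both sides of 0. Of the 421 tested, 115 (27.3%) had a log-fold over 0.3 and 63 (15%) under -0.3, against 20.4% and 24% of all genes tested, with a median of 0.04, where the median of all 7682 genes tested was -0.005. Without the 9, the numbers were 109 and 60 of 412. With median-ratio size factors 65 of the 421 were higher and 107 lower, against 625 and 2611 of all genes. From a list of 40 known lncRNAs 17 were tested, of which 2 (11.8%) were over 0.3 and 7 (41.2%) under -0.3. The highest were *Kcnq1ot1*, like *Airn* an imprinted antisense transcript (0.87, 113 uninjected and 59 GSK-J4-treated counts), *Neat1*, the scaffold of paraspeckles (0.36, 104 and 36), and *Miat* (0.22, 45 and 15). The lowest were *Mir124a-1hg*, the host transcript of a neuronal microRNA (-3.16, 2650 and 0 counts), *Malat1* of the nuclear speckles (-1.64, 627 and 51) and *Xist* (-1.06, 266 and 17). Of the 12 lncRNAs found in most GSK-J4-treated cells, *7420701I03Rik* and *Gm45336* were in 64 of 64, and in 82 and 81 uninjected cells. *4631405J19Rik*, chosen after its values were seen, was like *Gm31557* in being absent from the counts of uninjected cells, with exactly 1 count in each of 44 GSK-J4-treated cells and 0 in uninjected cells. Of the 421 lncRNA genes tested 35 had no count in uninjected cells.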

How the data were processed

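Per the labels and the study's methods, single GFP-positive cones of 1 uninjected and 1 GSK-J4-treated plate were sequenced. The authors aligned reads with the CLC Genomics Workbench, collapsed PCR duplicates that shared position and 8-nt UMI, counted with featureCounts on Gencode annotation and summed the 3′ and 5′ counts. The build they name, GRCh38, is a human one. The deposited values are whole-number counts for 17774 genes and 151 cells, without normalization. Of per-sample columns 0 belonged to other samples.

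The filter of the methods was applied again (a gene needs 3 cells, a cell 200 genes and no more than 5% mitochondrial counts). It kept 146 cells and 15947 genes. Cells were scaled to 10000 counts. The batch correction of the methods was not applied, no doublet caller was run, and cells were not tested as replicates. A gene was tested, in the sense of entering a count of genes, where 10% or more of the cells in 1 library had it. Intervals are at 95%, Clopper-Pearson for shares and exact Poisson for sums. Only counting error is covered. A side or library is said to stand apart where these intervals do not overlap. A floor of 3 counts stands for a library at 0. Expected shares after thinning to 867 counts, the 10th percentile of all cells, are hypergeometric probabilities, and the overlap of thinned intervals rests on 1 seeded random draw.

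Coordinates and transcripts are from GENCODE vM21, where all 9 symbols were found, and promoter windows from RefSeq, where 6 of the 9 were found. The members, the marker and lncRNA lists and the settings were chosen with earlier results of these data known. Genes named are the 9, those overlapping or nearest to them, the 3 most like each, and the 3 highest and 3 lowest of the known lncRNAs. The result of a single gene is not reported here. The script was tested on simulated data. Python 3.11.15, pandas 2.3.3, numpy 2.4.6, scipy 1.17.1 and matplotlib 3.10.9 were used.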

Additional observations from a re-analysis of the deposited data

Results flagged for a closer look

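The filter on mitochondrial counts left 3 uninjected and 2 GSK-J4-treated cells out of the main comparisons, and these are data outside the main measurement. They are not shown to be apart from the choice of genes. The study analysed 85 untreated cones, and 85 uninjected cells were deposited, those left out here included. The counts of these cells are therefore a description, and nothing is read from them. In the 2 GSK-J4-treated cells the 6 lncRNAs of the GSK-J4-treated cluster had 6 counts in all, against 0 in the 3 uninjected cells. The 3 lncRNAs of the uninjected clusters had 0 counts in the 2 GSK-J4-treated cells and 5 in the 3 uninjected cells.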

How the results depend on the processing

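No paired analysis was possible because there was 1 library per condition, and for the same reason no replicate could be left out. The log-folds of the 9 lncRNAs kept their direction in 90 of 90 values over 10 other settings. The choice of genes fixed these directions and the settings reuse the same cells, so nothing is read from that number. Of the 90 values 21 lay within counting error of the main value and 69 moved beyond it. They ranged from 2.50 to 5.03 for *Gm31557*, and from 0.80 to 4.48 for the other 5 of its set. For *Gm29152* the range was -2.58 to -0.0024, the latter on the right side of the plate alone, where it had 1 count. For *Airn* it was -2.13 to -0.35 and for *Gm15417* -3.62 to -1.08. Counts of genes depended on the setting too. LncRNA genes over 0.3 and under -0.3 numbered 115 and 63, but 179 and 129 with a pseudocount of 0.1, 65 and 107 with median-ratio size factors, and 57 and 18 with thinned cells. All genes tested numbered 1568 and 1842, but 2935 and 3143 with a pseudocount of 0.1, 625 and 2611 with median-ratio size factors, and 699 and 560 with thinned cells. The higher share of these lncRNA calls was 64.6%, 37.8% with median-ratio size factors and 76% with thinned cells, and of all calls 46.0%, 19.3% and 55.5%. With these the log-fold of the median gene was -0.14 and 0.22, from -0.005. Shares lower in GSK-J4-treated cells stood apart for 3 lncRNAs, and for 1 with thinned cells and 1 among cells of 1000 to 5000 counts. Shares higher there stood apart for 6, and for 1 with a count of at least 2. By side 2 lncRNAs stood apart, and 0 with thinned cells. Pairs above the product of shares numbered 15, and 6 with a count of at least 2. The cause of these moves was not tested. For these shares the numbers over all genes were not counted at the other settings, and for pairs at no setting.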

Other observations

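The 99 genes with 1 count in each GSK-J4-treated cell but 1 had their highest cells in 21 wells. Well E02 was the highest for 13 of them, *Gm47152* among these, H11 for 11 with *Gad1os*, and G07 for 10. Wells B09 and C12 were the highest for 8 each, H08 for 4, of which 2 were *Gm5103* and *4930528D03Rik*, and G04 for 3 with *4632411P08Rik*. Of the 99 genes, 9 had no count in uninjected cells, and none was in more than 22 uninjected cells. A further 3 genes found in 20 or more GSK-J4-treated cells had exactly 1 count in each of them, with no higher cell, and *4631405J19Rik*, in 44 cells, was 1 of the 3. In uninjected cells 0 of 2809 genes had that form.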
